A study of Mus musculus with 6 samples.

Results

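Genes of the unfolded protein response of the endoplasmic reticulum (ER) were measured in livers of SHMT2 KO and WT mice. The 10 genes were chosen by symbol, as the sensors Ern1 and Atf6, the chaperones and folding factors Hspa5, Hsp90b1, Pdia4, Calr, Dnajb9, Sdf2l1 and Creld2, and the degradation factor Herpud1. All 10 were found among the 49671 genes of the count table, and 10 of 10 passed the filter on low counts that left 16089 genes to be tested.

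Secretory and membrane proteins fold in the ER, and hepatocytes, which make most plasma proteins, hold a large ER. When unfolded proteins gather there, the sensors IRE1 (encoded by Ern1), ATF6 and PERK (encoded by Eif2ak3) are released from the chaperone BiP (encoded by Hspa5). IRE1 splices the Xbp1 mRNA into the form that encodes an active transcription factor, ATF6 is cut in the Golgi to free its transcription factor part, and PERK phosphorylates the translation factor eIF2alpha, which favours translation of ATF4. The first 2 routes are known for raising transcription of ER chaperones and degradation factors. Splicing, cleavage and phosphorylation are not visible in gene counts.

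RNA sequencing covered 6 liver libraries, 3 labelled WT and 3 labelled KO. The study's KO strain (SHMT2HKO) carries a floxed Shmt2 allele (SHMT2fl/fl) together with Albumin-Cre, so that deletion is directed to hepatocytes and other liver cells keep the gene, and its control strain carries SHMT2fl/fl. Both are male C57BL/6J mice that were weaned onto chow and were moved to the AMLN diet, a feed with much fat, cholesterol and fructose, when 4 weeks old. After 18 weeks on it, livers of both groups were taken from fasted animals aged 22 weeks. The design therefore asks how loss of hepatocyte SHMT2, the mitochondrial enzyme that turns serine into glycine, changes the liver under this diet. The labels number the samples 1 to 3 in each genotype without describing the animals, so that p-values measure the spread between these samples.

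Gene counts per library ranged from 23090837 to 34089722, at which 3 counts correspond to 0.0880 to 0.130 CPM (counts scaled to a common library size of 1000000). The targeted gene checked the labels, since Shmt2 gave 3866, 2897 and 3600 counts in WT1, WT2 and WT3 and 587, 558 and 491 counts in KO1, KO2 and KO3. Its log2 fold change was -2.04 (SE 0.16, adjusted p = 0.000639 by the quasi-likelihood test of edgeR, adjusted after Benjamini-Hochberg). On the second principal component, KO1 stood apart from KO2 and KO3. All values below in CPM use library sizes scaled by TMM, the edgeR method that centres libraries on most genes, and every adjusted p of a single gene is from the same edgeR test.

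Promoter sequences of the set are shown first, because the ATF6 and XBP1 routes are known to act through the ER stress response element (ERSE), which reads CCAAT, then 9 bases of any kind, then CCACG. A RefSeq window from 250 bases before to 50 bases after the transcript start (GRCm38.p6) was found for 9 of the 10 genes, all except Atf6. On either strand, the ERSE was matched in 4 of these 9 windows, those of Hspa5, Hsp90b1, Calr and Creld2, compared with 0.137% of 27025 genes with such windows. A second form, ERSE-II, which reads ATTGG, 1 base of any kind and CCACG, was matched in Herpud1 and in 0.0444% of genes. The matched stretches are printed below on the strand of each gene, with the matched element in capitals and 20 bases on each side. Where CGTGG comes first and ATTGG last, the element lies on the opposite strand.
Hspa5: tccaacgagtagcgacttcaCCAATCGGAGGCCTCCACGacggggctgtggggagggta
Hsp90b1: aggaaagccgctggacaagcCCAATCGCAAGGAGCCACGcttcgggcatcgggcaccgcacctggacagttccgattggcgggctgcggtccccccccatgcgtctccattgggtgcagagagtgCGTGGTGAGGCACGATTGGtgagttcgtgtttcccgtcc
Calr: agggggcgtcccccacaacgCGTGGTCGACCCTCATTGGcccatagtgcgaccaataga
Creld2: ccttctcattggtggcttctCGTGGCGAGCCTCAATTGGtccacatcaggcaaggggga
Herpud1: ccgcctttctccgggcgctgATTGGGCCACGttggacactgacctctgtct

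The Hspa5 stretch lies at chr2:34772005-34772063 on the plus strand, and its element began 65 bases before the RefSeq transcript start. That start is 120 bases inside the gene interval of GENCODE given below, so that the stretch lies within that interval, whereas the other 4 stretches lie outside the intervals of their genes. The Hsp90b1 stretch, at chr10:86705513-86705676 on the minus strand, held an element beginning 212 bases before the start and another, on the opposite strand, 107 bases before it. In Calr (chr8:84847055-84847113, minus strand) the element began 162 bases before the start, and in Creld2 (chr15:88819500-88819558, plus strand) it began 126 bases before it. The ERSE-II match of Herpud1 (chr8:94386357-94386407, plus strand) began 52 bases before the start. The core CCACG, which is part of both elements, was found in 9 of 9 windows, compared with 35.5% of genes, so that Pdia4, Dnajb9, Sdf2l1 and Ern1 held the core without a whole element. In Pdia4 the core lay 36 to 40 bases after the RefSeq start. The RefSeq start of Dnajb9 is 258 bases inside its GENCODE gene interval. Its window therefore does not reach the bases before that interval, which were not searched. The UPR element TGACGTGG was found in 0 of 9 windows and in 0.714% of genes. These matches describe letters in a window and do not measure binding. The elements were searched because they are known from this response, and the set was chosen as genes of the same response. Matches in the set were therefore likely beforehand, and the shares of all genes beside them are description and no test.

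**Figure D1:**
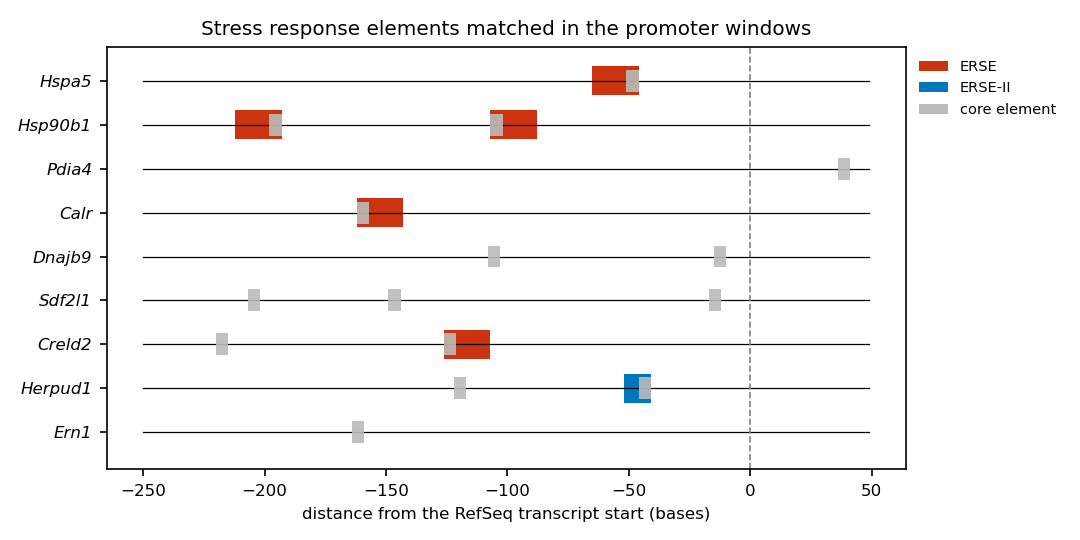
Matched elements in the promoter windows of 9 genes. The x axis gives the distance in bases from the RefSeq transcript start, each row is a gene, and bars mark ERSE matches (4 genes), the ERSE-II match (Herpud1) and the core element, which is present in all 9 windows.

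Among the 10 genes, 6 rose in KO livers at an adjusted p under 0.05 and 0 fell, beside 12.5% of all tested genes that were called higher and 16.5% called lower. The risen genes were Hspa5, Hsp90b1, Pdia4, Dnajb9, Creld2 and Sdf2l1, with log2 fold changes from 0.48 to 1.14. All 4 others, Calr, Herpud1, Ern1 and Atf6, had positive log2 fold changes but were not called. The median log2 fold change was 0.62 over the 10 genes and 0.03 over all genes. Without overlap between the groups, 7 of the 10 genes were higher in KO, compared with 21.9% of tested genes, and the same number passed the cutoff of the study (p under 0.05 and adjusted p under 0.25), compared with 19.5%. These counts rest on the TMM scaling and on all 6 libraries, as described further below.

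Hspa5 (ENSMUSG00000026864, chromosome 2, 34771970 to 34777547, plus strand, GRCm38) encodes BiP, the HSP70-type chaperone of the ER that binds unfolded chains and holds the stress sensors inactive. Its level was 431, 405 and 451 CPM in WT1, WT2 and WT3 and 718, 681 and 555 CPM in KO1, KO2 and KO3. Every KO library was above every WT library, with KO3 the closest to WT. The mean rose from 429 ± 23.4 to 652 ± 85.2 CPM (SD, n = 3), a 1.52-fold difference (log2 fold change 0.60, SE 0.16, edgeR adjusted p = 0.0235).

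Hsp90b1 (ENSMUSG00000020048, chromosome 10, 86690209 to 86705509, minus strand) encodes endoplasmin, the HSP90-type chaperone of the ER. It read 500.0, 483 and 443 CPM in WT1 to WT3 and 948, 713 and 615 CPM in KO1 to KO3. The groups did not overlap, and KO1 stood well above the other KO libraries. The log2 fold change was 0.67 (SE 0.19, edgeR adjusted p = 0.0308). Of its 4032 exon bases, 415 are shared with 1810014B01Rik on the opposite strand, and whether counting used the strand is not given in the sources used here, but that gene held at most 125 counts in any library.

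Pdia4 (ENSMUSG00000025823, chromosome 6, 47796141 to 47813430, minus strand) encodes a protein disulfide isomerase, which forms and rearranges disulfide bonds of secreted proteins. Levels were 143, 124 and 129 CPM in WT1 to WT3 and 245, 209.6 and 179 CPM in KO1 to KO3. All KO libraries exceeded all WT libraries, in the same order as for Hsp90b1. The difference was 1.60-fold (log2 fold change 0.67, SE 0.15, edgeR adjusted p = 0.0129).

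Calr (ENSMUSG00000003814, chromosome 8, 84841850 to 84846934, minus strand) encodes calreticulin, a calcium-binding lectin chaperone of newly made glycoproteins. It gave 682, 624 and 630.3 CPM in WT1 to WT3 and 1352, 895 and 783 CPM in KO1 to KO3. The groups did not overlap, but the KO libraries spread widely, with KO1 far above the others. With a log2 fold change of 0.65 (SE 0.22, 95% interval 0.14 to 1.15) the gene missed the threshold (edgeR adjusted p = 0.0589), and without KO3 its adjusted p was 0.0177. It was also called by DESeq2 and, by edgeR, with a filter of at least 1 count in any sample (adjusted p = 0.0401).

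Dnajb9 (ENSMUSG00000014905, chromosome 12, 44205559 to 44210326, minus strand) encodes a J-domain co-chaperone of BiP. Its 41.4, 35.7 and 44.7 CPM in WT1 to WT3 compared with 50.7, 61.9 and 57.7 CPM in KO1 to KO3. The groups did not overlap, and KO1 was here the lowest of the KO libraries, unlike in the other risen genes. The log2 fold change was 0.48, the smallest of the 6 (SE 0.13, edgeR adjusted p = 0.0267).

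Sdf2l1 (ENSMUSG00000022769, chromosome 16, 17130138 to 17132383, minus strand) encodes an ER-resident protein that works with BiP and its J-domain partners. It had the largest log2 fold change of the 10 genes, 1.14 (SE 0.29, 95% interval 0.47 to 1.81, edgeR adjusted p = 0.0229). Levels were 29.2, 26.1 and 28.1 CPM in WT1 to WT3 and 88.8, 60.2 and 35.0 CPM in KO1 to KO3. The WT libraries lay close together, whereas the KO libraries ran from KO1, far above WT, to KO3, slightly above it. With a filter of at least 1 count in any sample the log2 fold change was 1.11 and the gene was not called (edgeR adjusted p = 0.0933).

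Creld2 (ENSMUSG00000023272, chromosome 15, 88819646 to 88826683, plus strand) encodes an ER protein induced by stress in many cell types. Its levels were 28.5, 33.2 and 31.6 CPM in WT1 to WT3 and 69.1, 67.0 and 43.0 CPM in KO1 to KO3. KO1 and KO2 were nearly equal, and KO3 lay between them and WT. The gene rose 1.92-fold (log2 fold change 0.94, SE 0.19), with the smallest adjusted p of the set (edgeR adjusted p = 0.00812).

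Herpud1 (ENSMUSG00000031770, chromosome 8, 94386438 to 94395377, plus strand) encodes an ER membrane protein of the degradation machinery. Its 266, 413 and 248 CPM in WT1 to WT3 overlapped with 287, 348 and 416 CPM in KO1 to KO3. The highest KO value came from KO3 and the highest WT value from WT2, and the spread within WT was the largest of the set in relative terms (CV 29.2%). The log2 fold change was 0.18 with a 95% interval from -0.35 to 0.71 (edgeR adjusted p = 0.593).

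The sensor genes were not called. Ern1 (ENSMUSG00000020715, chromosome 11, 106394650 to 106487852, minus strand) read 48.1, 32.5 and 41.4 CPM in WT1 to WT3 and 37.2, 30.1 and 58.6 CPM in KO1 to KO3. WT values fell within the KO range, and the log2 fold change was 0.04 (95% interval -0.53 to 0.62, edgeR adjusted p = 0.912). Atf6 (ENSMUSG00000026663, chromosome 1, 170704674 to 170867771, minus strand) read 59.6, 63.3 and 66.6 CPM in WT1 to WT3 and 65.4, 75.6 and 84.7 CPM in KO1 to KO3. Only KO1 overlapped with WT, and the log2 fold change was 0.25 (95% interval -0.04 to 0.55, edgeR adjusted p = 0.177).

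**Figure D2:**
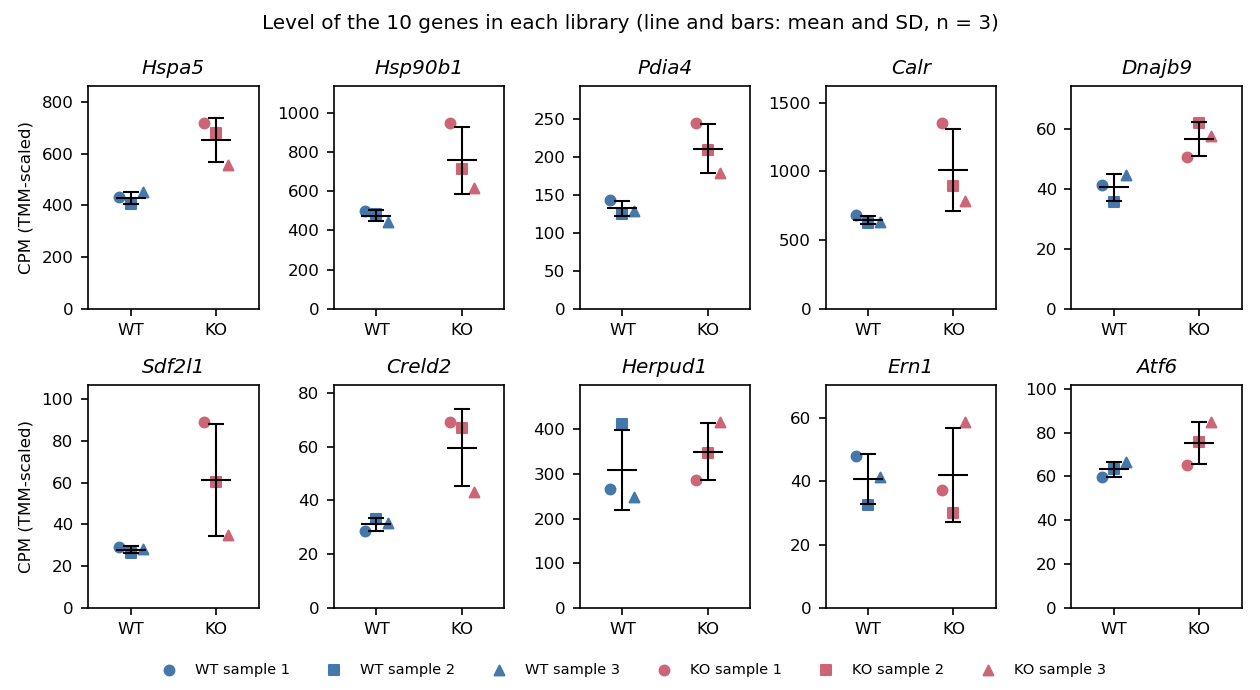
Level of each of the 10 genes in each library, in CPM scaled by TMM on axes that start at 0, with the group mean and SD (n = 3). In the panels of Hspa5, Hsp90b1, Pdia4, Calr, Dnajb9, Sdf2l1 and Creld2 all KO points lie above all WT points, while the groups overlap for Herpud1, Ern1 and Atf6.

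The KO libraries differed among themselves more than the WT libraries. The coefficient of variation was larger in KO for 8 of the 10 genes, with a median of 20.5% in KO and 6.85% in WT. Of the 6 risen genes, KO1 was the highest library in 5 and KO3 was the lowest KO library in 5. The summed level of 10 hepatocyte markers followed the same order, at 114836, 110427 and 72553 CPM in KO1, KO2 and KO3. The WT libraries ranged from 58367 to 72161 CPM. Single markers did not all keep this order. Apoa1, Apoa2, Apoc3, Tf, Fgb and Cps1 did. Alb, the largest part of the sum, was highest in KO2, as were Ttr and Ass1, and Hnf4a was highest in KO3. The part of hepatocyte markers in the result was not tested. Herpud1, Ern1 and Atf6 instead had their highest value in KO3.

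Levels between genes were compared per length, as RPKM, which here is the TMM-scaled CPM divided by the exon length in kilobases. In WT livers the order was Calr, Herpud1, Hsp90b1, Hspa5, Pdia4, Sdf2l1, Creld2, Dnajb9, Atf6 and Ern1. Calr stood at 224 ± 11.0 RPKM and Hspa5 at 101 ± 5.54 RPKM, whereas the sensor genes Atf6 and Ern1 stood at 6.84 ± 0.381 and 4.98 ± 0.956 RPKM (SD, n = 3). The range of Herpud1 (132 ± 38.7 RPKM) overlapped with those of Hsp90b1 (118 ± 7.23 RPKM) and Hspa5, and the range of Sdf2l1 with that of Creld2. In KO livers Calr remained first, at 351 ± 105 RPKM, and Herpud1, at 150 ± 27.6 RPKM, came after Hsp90b1 (188 ± 42.5 RPKM) and Hspa5 (154 ± 20.1 RPKM), but the ranges of Hspa5 overlapped with those of both its neighbours. The KO ranges of Hsp90b1 and Herpud1 also overlapped, as did those of Pdia4 and Sdf2l1 and those of Sdf2l1 and Creld2. Dnajb9, at 22.3 ± 2.22 RPKM, and the sensors kept the last 3 places, and Atf6 and Ern1 overlapped.

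The likeness of profiles to that of Hspa5 was measured as the root mean square difference of centred log2 CPM over the 6 libraries. Of the other members, Pdia4 was the closest at 0.0847, followed by Hsp90b1 at 0.137 and Calr at 0.169, and Herpud1 and Ern1 were the farthest at 0.427 and 0.505. Among 12316 other genes, leaving out Gm and Rik gene models, the closest were Gltpd2 (0.0322), Acbd4 (0.0385), Esrp2 (0.0422), Pdcd6 (0.0427) and Gcgr (0.0480), the last encoding the glucagon receptor. These genes were closer to Hspa5 than any other member was. A search over 12316 genes makes such close profiles likely, so this does not show that the members move apart from Hspa5.

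The direction of the set depended on the scaling of libraries. TMM factors were 1.13 to 1.21 in WT and 0.802 to 0.984 in KO, and without TMM only 1 of the 10 genes was called higher, 7 had positive log2 fold changes and 2 (Hspa5 and Creld2) had groups that did not overlap. When libraries were scaled to the ERCC spike-in RNAs, 0 of the 10 genes were called by edgeR, 0 had an unadjusted p under 0.05 and only Creld2 and Sdf2l1 stayed positive, with a median of -0.18. This fit was less precise, with an SE of 0.42 for Hspa5 and 0.45 for Pdia4, compared with 0.16 and 0.15 with TMM. When libraries were scaled to the 10 hepatocyte markers, which was added after the data were seen, 0 genes were again called, 0 had an unadjusted p under 0.05, and the median was -0.06. With TMM these markers had a median log2 fold change of 0.64, close to the 0.62 of the set. Scaling to them therefore brings the set near 0 by construction and is no separate check. Under these scalings the median over all genes fell too, to -0.40 without TMM, -0.69 with ERCC and -0.60 with hepatocyte markers. Rescaling shifts nearly all genes alike, so that the excess of the set's median over that of all genes was 0.51 to 0.60 in these fits by construction and is no sign of stability. Over all genes, 2012 were called higher and 2651 lower with TMM, 539 and 4923 without it, 1461 and 3039 with upper quartile scaling, 107 and 2759 with ERCC, and 189 and 4253 with hepatocyte markers.

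**Figure D3:**
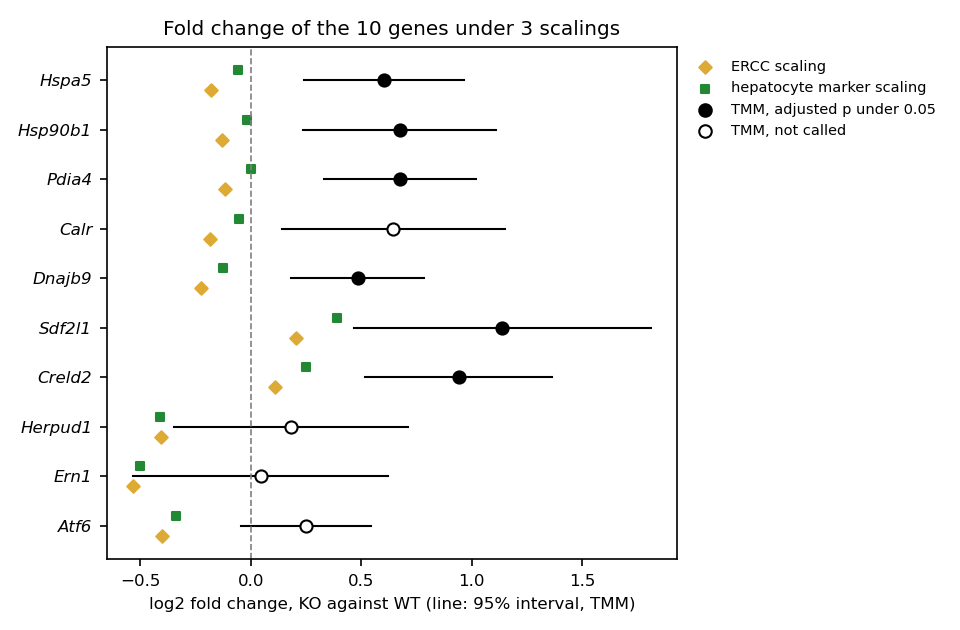
Log2 fold change (KO against WT) of each of the 10 genes with TMM scaling and its 95% interval, filled where the adjusted p was under 0.05, beside the value with ERCC scaling and with hepatocyte marker scaling. All 10 values are positive with TMM, 2 with ERCC and 3 with hepatocyte markers.

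The ERCC share of counts was 1.58 ± 0.228% in WT and 2.14 ± 0.718% in KO (SD, n = 3, exact permutation test, two-sided p = 0.4), and it ranged within KO from 1.35% in KO3 to 2.75% in KO1. An exact test of 3 against 3 samples cannot give a p below 0.1. Mitochondrially encoded genes took 3.48 ± 0.206% of counts in WT and 4.63 ± 0.336% in KO (SD, n = 3, exact permutation test, two-sided p = 0.1).

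The ratio to Atf6 within a library does not depend on any scaling, and it was added after the data were seen. For Sdf2l1 it was 0.491, 0.413 and 0.422 counts per Atf6 count in WT1 to WT3 and 1.36, 0.796 and 0.414 in KO1 to KO3, so that KO3 fell within the WT values. For Creld2 it was 0.479, 0.524 and 0.474 in WT and 1.06, 0.886 and 0.508 in KO, and KO3 again overlapped with WT. For Hspa5 it was 7.24, 6.39 and 6.77 in WT and 11.0, 9.01 and 6.56 in KO. None of the 9 ratios separated the groups, and their exact permutation p-values ranged from 0.2 to 0.9 (two-sided, 0.45 to 0.9 after Benjamini-Hochberg adjustment over the 9 ratios). With TMM, Atf6 itself had a positive log2 fold change (0.25) and its highest level in KO3 (84.7 CPM), which lowers the ratios of KO3. Overlapping ratios therefore do not show that these genes did not differ.

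**Figure D4:**
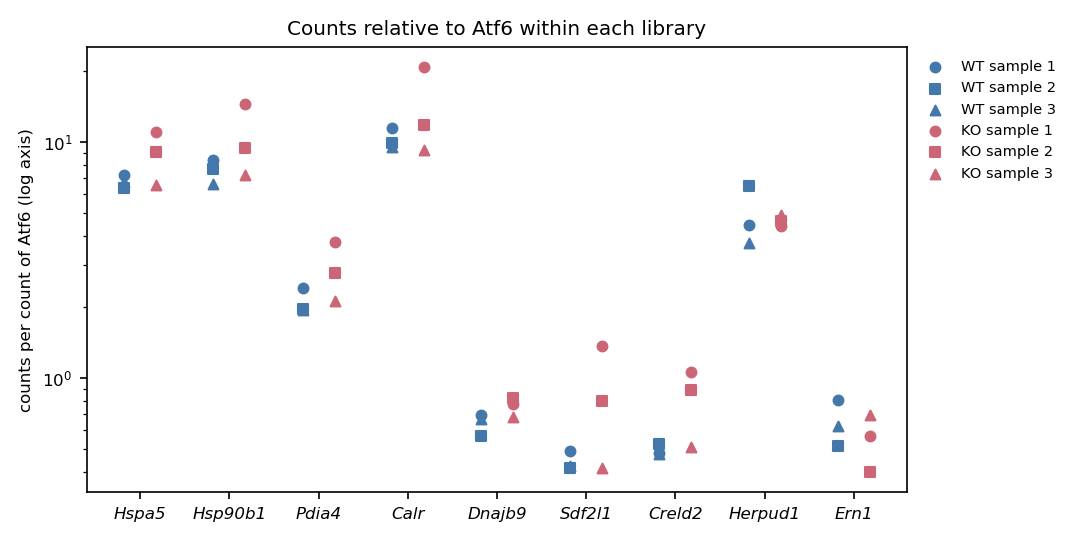
Counts of each of 9 genes per count of Atf6 in the same library, on a log axis, for the 3 WT and 3 KO libraries. KO1 has the highest ratio for Hspa5, Hsp90b1, Pdia4, Calr, Sdf2l1 and Creld2, and KO3 lies within the WT range for 5 of these 6 genes and below it for Calr.

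The call also depended on single libraries. Of the 10 genes, 1 was called without WT2 or without WT3, 2 without WT1 or without KO2, 5 without KO1 and 7 without KO3, whereas the median log2 fold change lay between 0.50 and 0.72 in all 6 fits. Creld2 was called in each of these fits, with adjusted p up to 0.0406. The largest adjusted p was 0.102 for Hspa5, 0.123 for Hsp90b1, 0.103 for Dnajb9, 0.0623 for Pdia4 and 0.0830 for Sdf2l1. In such fits the number of calls over all genes fell as well, to 2433 without WT3, compared with 4663 with all libraries.

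Cell type markers moved with genotype. For comparison, 12.5% of all tested genes were called higher and 16.5% lower. Summed markers of cholangiocytes spanned 1015 to 1266 CPM in WT and 153 to 269 CPM in KO, with 7 of 7 genes called lower. Those of T and NK cells spanned 18.2 to 22.5 CPM in WT and 3.09 to 4.41 CPM in KO, with 6 of 6 called lower. Stellate cell and fibroblast markers ranged from 1550 to 1626 CPM in WT and from 380 to 965 CPM in KO, where 6 of 10 were called lower and 1 higher. Hepatocyte markers had 3 of 10 called higher by edgeR (6 at an unadjusted p under 0.05) and 7 by DESeq2, with 0 lower by either. Without 1 library, 1 was called higher without WT1, WT2 or KO2, 2 without WT3 or KO1, and 6 without KO3. Macrophage markers had 3 of 10 called higher and 3 lower (286 to 436 CPM in WT, 372 to 465 CPM in KO), and endothelial markers 2 of 8 higher and 1 lower (227 to 244 and 272 to 315 CPM). Of the tested markers, 1 of 7 of B and plasma cells and 1 of 3 of neutrophils were called lower and 1 of 4 of erythroid cells higher, and no listed marker was at 0 in all 6 libraries. In a whole liver, fewer cells of a type and less RNA per cell cannot be told apart, and the part of these markers in the rise of the chaperones was not tested.

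The rest of the pathway was described with lists of known genes. Of 29 other ER chaperones and folding enzymes, 12 rose, 2 fell and 15 were not called with TMM. Over all tested genes, 12.5% were called higher and 16.5% lower. The median log2 fold change of the list was 0.36. However, 0 were called higher with ERCC scaling (median -0.31) or with hepatocyte marker scaling (median -0.24). Ero1b, an oxidase that recharges disulfide isomerases, showed the largest rise (log2 fold change 1.14, edgeR adjusted p = 0.0020), with 22.4 to 27.9 CPM in WT and 49.8 to 66.8 CPM in KO. Hyou1, a nucleotide exchange factor for BiP, rose by a log2 fold change of 0.90 (edgeR adjusted p = 0.0042), and the disulfide isomerase Pdia6 by 0.81 (edgeR adjusted p = 0.0127). Selenom, an ER selenoprotein, fell (log2 fold change -1.43, edgeR adjusted p = 0.0032), as did Dnajc10, a disulfide reductase with a J-domain (log2 fold change -0.65, edgeR adjusted p = 0.0131). The number that rose was 5 without WT1, 5 without WT2 and 4 without WT3, and the number that fell was 1 without WT1.

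Of 25 genes of ER-associated degradation, the pathway that returns misfolded proteins to the cytosol, 8 rose and 0 fell. Over all tested genes, 12.5% were called higher and 16.5% lower. In this list 1 was lower at an unadjusted p under 0.05, and 0 fell by DESeq2 or limma-voom. The median log2 fold change was 0.31 and became -0.43 with ERCC scaling. Rises numbered 1 without TMM, 1 with hepatocyte marker scaling and 0 with ERCC scaling (1 at an unadjusted p under 0.05). The number that fell was 2 without TMM, 1 with hepatocyte marker scaling and 1 with upper quartile scaling. Over all 16089 tested genes, 4923, 4253 and 3039 were called lower in the same order of scalings. Derl3, a channel component, had the largest value (log2 fold change 2.57, edgeR adjusted p = 0.0195), with 17.6 CPM in KO1, compared with 3.85 and 3.86 CPM in KO2 and KO3 and 1.24 to 1.64 CPM in WT. Without KO1 the log2 fold change of Derl3 was 1.44. Sel1l, which organises the ubiquitin ligase complex, rose by a log2 fold change of 0.72 (edgeR adjusted p = 0.0037), and Derl2 by 0.71 (edgeR adjusted p = 0.0095). The count of rises was 2 without WT1, 3 without WT2, 3 without WT3 and 5 without KO2.

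Of 15 other sensors, transcription factors and regulators of the response, 2 rose, near the 12.5% of all tested genes that were called higher, and the median log2 fold change was -0.08. The number that fell was 0 by edgeR (2 at an unadjusted p under 0.05), DESeq2 and limma-voom. It was 6 without TMM, 3 with hepatocyte marker scaling and 2 with upper quartile scaling. Falls were also frequent over all 16089 tested genes, with 4923, 4253 and 3039 called lower in the same order of scalings. The risen genes were Ppp1r15b, a subunit of the phosphatase that reverses eIF2alpha phosphorylation (log2 fold change 0.57, edgeR adjusted p = 0.0064), and Creb3l3, a liver ER membrane transcription factor (log2 fold change 0.56, edgeR adjusted p = 0.0217). With ERCC scaling both had negative values, and 1 of the 15 genes rose without WT1, WT2, WT3 or KO2, while 4 fell without KO3. 4 partners of the sensors are given next, chosen after their values were seen. Xbp1, the substrate of IRE1, read 218, 195 and 306 CPM in WT1 to WT3 and 482, 256 and 321 CPM in KO1 to KO3, with overlap (log2 fold change 0.56, edgeR adjusted p = 0.147). Atf4 read 102, 91.7 and 104 CPM in WT1 to WT3 and 132, 109.9 and 106 CPM in KO1 to KO3, without overlap but not called (log2 fold change 0.23, edgeR adjusted p = 0.230). Eif2ak3 gave a log2 fold change of -0.33 (edgeR adjusted p = 0.462), and the stress-induced factor Ddit3 one of -0.41 (edgeR adjusted p = 0.0624).

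Of 28 genes of the translocon, signal peptidase and oligosaccharyltransferase, which bring new chains into the ER and attach glycans, 4 rose, near the 12.5% of all tested genes, and 1 fell, compared with 16.5%. The median log2 fold change was 0.20 and became -0.57 with ERCC scaling, and the number that rose was 6 by DESeq2, 1 with upper quartile scaling and 0 without TMM or with ERCC or hepatocyte marker scaling (0 at an unadjusted p under 0.05 in each). Magt1, an oligosaccharyltransferase subunit, had a log2 fold change of 0.62 (edgeR adjusted p = 0.0120), and its paralog Tusc3 one of -0.56 (edgeR adjusted p = 0.0356). Tram1 and Srpr, which take part in translocation and targeting, rose by log2 fold changes of 0.47 and 0.46 (edgeR adjusted p = 0.0332 and 0.0254). The number that rose was 0 without WT2 (edgeR), 1 without WT3, 1 without KO2 and 8 without KO3, and that of falls was 0 without WT1, WT2, WT3 or KO1 and 2 without KO3.

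Targets of ATF4, the transcription factor downstream of PERK and other kinases, were also listed. Of 15 such genes, 7 fell, compared with 16.5% of all tested genes, and 0 rose. At an unadjusted p under 0.05, 1 was higher, and 1 rose by DESeq2 but 0 by limma-voom. The median log2 fold change was -0.66. With ERCC scaling 7 were lower as well, beside 2759 of all 16089 tested genes. The largest decreases were those of the cystine transporter gene Slc7a11 (log2 fold change -1.87, edgeR adjusted p = 0.0282), Phgdh, the first enzyme of serine synthesis (-1.55, edgeR adjusted p = 0.0040), and Asns, asparagine synthetase (-1.47, edgeR adjusted p = 0.0362). Phgdh read 3.74, 4.36 and 4.07 CPM in WT1 to WT3 and 1.70, 1.32 and 1.14 CPM in KO1 to KO3. Slc7a11 was at a low level, at 2.79, 1.09 and 1.93 CPM in WT1 to WT3. In KO1 to KO3 it read 0.849, 0.253 and 0.472 CPM. The part of the cell type markers in these falls was not tested. The number that fell was 3 without WT1, 3 without WT3 and 4 without KO2, and 1 rose without KO2.

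Chaperones of other compartments were compared with the ER set. Of 18 cytosolic heat shock proteins, 10 rose and 1 fell, beside 12.5% of all tested genes called higher and 16.5% called lower. The median log2 fold change of this list was 0.49 and became -0.22 with ERCC scaling. Rises numbered 4 without TMM and 0 with ERCC or hepatocyte marker scaling (0 at an unadjusted p under 0.05 in both). Hsph1 rose by a log2 fold change of 1.09 (edgeR adjusted p = 0.0068), Hsp90aa1 by 1.06 (edgeR adjusted p = 0.0015) and Hspa4l by 1.06 (edgeR adjusted p = 0.0113). The inducible HSP70 gene Hspa1a fell (-0.99, edgeR adjusted p = 0.0496), from a mean of 3.80 CPM in WT to 1.90 CPM in KO. Its paralog Hspa1b, with means of 12.9 CPM in WT and 12.4 CPM in KO, was not called (log2 fold change -0.05, edgeR adjusted p = 0.903). The count of rises was 5 without WT1, 5 without WT2, 6 without WT3 and 6 without KO2. The fall of Hspa1a was lost without WT2, WT3, KO1 or KO2. Hspa1a was also not called by limma-voom, without robust estimation, with ERCC scaling or with a block on the replicate number. Of 14 mitochondrial chaperones and proteases, 7 rose and 0 fell, beside the same 12.5% and 16.5% of all tested genes. At an unadjusted p under 0.05, 0 were lower, and 0 fell by DESeq2 or limma-voom. The median of this list was 0.37 and became -0.35 with ERCC scaling. The number that rose was 10 by DESeq2, 4 with upper quartile scaling, 0 without TMM (1 at an unadjusted p under 0.05) and 0 with ERCC or hepatocyte marker scaling (0 at an unadjusted p under 0.05 in both). Hspe1 and Hspd1, which form the mitochondrial chaperonin, had log2 fold changes of 0.78 and 0.67 (edgeR adjusted p = 0.0182 and 0.0121), and the exchange factor Grpel2 one of 0.67 (edgeR adjusted p = 0.0102). Rises numbered 2 without WT1, 3 without WT2, 1 without WT3 and 2 without KO2. Of the genes named from all lists, Ero1b, Hyou1, Selenom, Sel1l, Derl2, Ppp1r15b, Phgdh, Hsph1, Hsp90aa1, Hspa4l and Grpel2 were called with any 1 library left out, and each of the others lost its call without at least 1 library. The medians of the ER set, 0.62, and of these lists were not tested against each other.

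**Figure D5:**
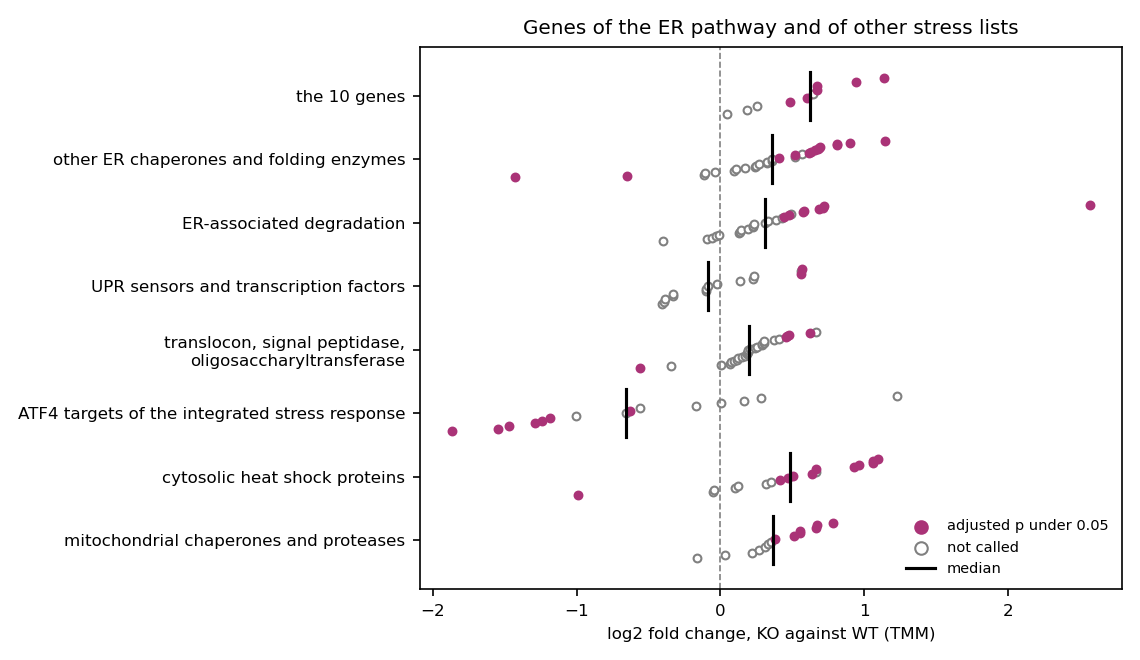
Log2 fold change (KO against WT, TMM scaling) of each tested gene in the 10-gene set and in 7 further lists, filled where the adjusted p was under 0.05, with the median of each list as a bar. The medians are 0.62 for the 10 genes, 0.36 for other ER chaperones, 0.49 for cytosolic heat shock proteins and -0.66 for ATF4 targets, and with ERCC scaling all 8 medians are below 0.

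Genes that shared the promoter element were also read out. Of 20 tested genes with an ERSE match, 8 rose and 4 fell, with a median log2 fold change of 0.37, beside 12.5% of all tested genes called higher and 16.5% called lower. Leaving out the 4 members, 5 of 16 rose and 4 fell, with a median of 0.27, so that genes with the element moved in both directions. The 5 that rose were Derl3, Dnajc3 and Pdia6, all ER proteins, and Acacb and Acnat2 (log2 fold changes 2.20 and 1.44), which are in none of the lists. Calr4, a calreticulin relative, was among those that fell (log2 fold change -4.24, edgeR adjusted p = 0.0028). Its mean level was low, at 2.83 CPM in WT and 0.141 CPM in KO. All of these were named after their values were seen. Within the set, Pdia4, Dnajb9 and Sdf2l1 rose with only the core CCACG in their windows, and Calr, with the whole element, was not called. For Dnajb9 the window does not reach the bases before its GENCODE gene interval, so a whole element there would be missed.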

How the data were processed

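The authors sequenced liver RNA as paired-end reads and deposited raw gene counts, without normalization, in 1 table for all 6 samples. According to the submitters' processing notes and the study's methods, reads were trimmed with Trimmomatic 0.36, aligned to GRCm38 with ERCC sequences by STAR 2.5.2b and counted as unique gene hits with featureCounts of Subread 1.5.2. The strand setting is not given in the sources used here. The 92 ERCC entries were kept out of library sizes and tests. Gene symbols, positions and exon lengths came from GENCODE M21 (GRCm38).

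Counts were filtered (filterByExpr), scaled by TMM and tested with the quasi-likelihood F test of edgeR 4.0.16 in R 4.3.3 (robust, two-sided), with Benjamini-Hochberg adjustment over 16089 genes and a threshold of 0.05. Alternatives were DESeq2 1.42.0, limma-voom (limma 3.58.1), other scalings and filters, a block on the replicate number, and fits without each library. The chi-square statistic per gene between samples of 1 group ranged from 26.9 (WT1 and WT3) to 151 (KO1 and KO3). No p-value was computed from it, and it was used only to see that no library was a copy of another. The fit was tested on simulated counts. By rule, the named genes are Shmt2, the 10 genes, up to 3 called genes with the largest increase and up to 3 with the largest decrease in each list, and the 5 genes most like Hspa5. Genes named outside this rule include single hepatocyte markers, Xbp1, Atf4, Eif2ak3, Ddit3, Hspa1b, Dnajc3, Acacb, Acnat2 and Calr4. Most of these were named after their values were seen. Members and lists were chosen with earlier results of these data known, so their counts are not independent support. Promoter windows were from RefSeq (GRCm38.p6).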

Additional observations from a re-analysis of the deposited data

How the results depend on the processing

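With ERCC scaling the log2 fold change turned negative for Hspa5 (-0.18), Hsp90b1 (-0.13), Dnajb9 (-0.23), Herpud1 (-0.41), Pdia4 (-0.12), Calr (-0.18), Ern1 (-0.53), Atf6 (-0.40), Sel1l (-0.033), Derl2 (-0.089), Ppp1r15b (-0.13), Creb3l3 (-0.15), Magt1 (-0.15), Tram1 (-0.24), Srpr (-0.27), Hspe1 (-0.026) and Hspd1 (-0.061). With hepatocyte marker scaling, chosen after seeing the data, it turned negative for Hspa5 (-0.058), Hsp90b1 (-0.017), Dnajb9 (-0.13), Herpud1 (-0.41), Calr (-0.055), Ern1 (-0.50), Atf6 (-0.34), Ppp1r15b (-0.052), Creb3l3 (-0.071), Magt1 (-0.036), Tram1 (-0.16) and Srpr (-0.17). Without TMM it did so for Herpud1 (-0.22), Ern1 (-0.35) and Atf6 (-0.16), and with upper quartile scaling for Ern1 (-0.05). Leaving out 1 library moved Ern1 between -0.31 (without KO3) and 0.23, with -0.093 without WT2. For Hspa5 the SE was 0.42 with ERCC scaling and 0.22 with hepatocyte marker scaling, compared with 0.16 with TMM. For Dnajb9 it was 0.50, 0.30 and 0.13. The negative values of these genes were smaller in size than their SE.

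The number of genes called was 2866 with ERCC scaling and ranged from 2433 (without WT3) to 5580 (without KO3) with 1 library left out. The number called higher was 539 without TMM, 107 with ERCC and 189 with hepatocyte marker scaling, and ranged from 806 (without WT3) to 2511 (without KO3). Among the 10 genes, 1 was called without TMM, 0 with ERCC, 0 with hepatocyte marker scaling, 4 with upper quartile scaling, 7 with DESeq2 and 1 to 7 with 1 library left out. The groups of 2 genes did not overlap without TMM, and of 0 with ERCC. Filters of at least 1 count in any sample or at least 10 in every sample left 6 of the 10 genes called, the first with Calr in place of Sdf2l1. The cause of these differences was not tested.

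With the replicate block, 3 of the 10 genes and 3584 of all genes were called. Samples of the same number had correlations of their deviations of -0.046, 0.013 and -0.077, so that the numbers did not pair the samples. Shmt2, Phgdh and Selenom kept their call and direction in all alternatives run. With 3 samples per group and KO libraries that spread widely, p-values that missed the threshold do not show that genes did not differ.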
